A study of Mus musculus with 9 samples.

Results

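The genes of renal phosphate transport and of its control by parathyroid hormone, FGF23 and vitamin D were examined as a set of 10: Slc34a1, Slc34a3, Slc20a1, Slc20a2, Slc9a3r1, Fgfr1, Pth1r, Vdr, Cyp24a1 and Cyp27b1. The rule names the genes for their roles and uses no measured value, though the set was chosen with earlier results of these data known. All 10 were found on exactly 1 row each among 52405 rows of the expression table. Each passed the filter on low values, which asked for 1 FPKM or more (fragments scaled to transcript length and to the library's total) in 3 or more libraries, as did 13160 genes in all.

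The libraries came from kidney cortex of C57BL/6 mice, from cells held on a magnetic column by an antibody against prominin-1, a protein of the brush border. Ovariectomized females (labelled D21-ovx), sham-operated females (D21-s) and sham-operated males (M) gave 3 libraries each, described as biological replicates and named here O1 to O3, S1 to S3 and M1 to M3. Surgery took place on postnatal day 21 in both female groups. The males are described as adult, with no day of surgery, and the age at collection is not given in the sources used here. In every comparison with males, sex therefore cannot be told apart from any difference in age or in day of surgery. Differences between the sexes below are meant in this sense, as differences between the labelled groups. Whether a library holds 1 animal or several pooled is also not stated, so p-values measure the spread between these libraries.

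The proximal tubule reclaims most filtered phosphate through sodium-coupled transporters in its brush border. Parathyroid hormone, acting on its receptor PTH1R, and FGF23, acting on FGF receptors together with the co-receptor Klotho, both withdraw these transporters from the membrane and raise phosphate loss into urine. The same cells make the active vitamin D hormone with the enzyme CYP27B1 and break it down with CYP24A1. Parathyroid hormone raises CYP27B1, while FGF23 and the active hormone itself lower CYP27B1 and raise CYP24A1.

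The labelled tissue was checked against marker genes. All 10 proximal tubule markers reached 1 FPKM in every library, and their summed level was 6778.24 to 7461.16 FPKM in ovariectomized females, 6037.91 to 6737.47 in sham females and 4424.54 to 4655.57 in sham males. Most of that sum is Miox and Slc27a2. Of the 10, 7 were called higher in sham females and 6 in ovariectomized females than in males, and 0 lower, while the glucose and monocarboxylate transporter genes Slc5a2 and Slc5a12 had negative log2 fold changes in both (-0.40 and -0.12 in sham, -0.51 and -0.28 in ovariectomized females). Prom1, the gene of the protein used to hold the cells, averaged 74.4 FPKM in ovariectomized females, 98.6 in sham females and 45.3 in sham males and was among those called. Of 45 markers of other cell types, none was at 0 in all libraries, and 39 passed the filter. Their summed level was 1484.87 to 2294.38 FPKM in ovariectomized females, 1237.16 to 2241.76 in sham females and 2392.92 to 3565.53 in sham males. All 39 had a negative log2 fold change in sham females against males, with a median of -0.89. The most abundant was the thick ascending limb gene Umod, at a mean of 882 FPKM over the 9 libraries, followed by Slc12a3 of the distal convoluted tubule at 368 FPKM. The most abundant of the remaining lists were Podxl of podocytes at 86.2, Hsd11b2 of connecting tubule and principal cells at 69.9, Emcn of endothelium at 41.9, Slc26a4 of intercalated cells at 22.5, Pdgfrb of stroma at 6.61 and Lyz2 of immune cells at 4.96 FPKM, beside 2696 FPKM for the proximal tubule gene Miox. Other segments were therefore present in every fraction and at a higher summed level in all 3 male libraries, beside each difference between the sexes given here. In such bulk samples fewer cells of a type and less RNA per cell cannot be told apart.

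A difference was called at an adjusted p under 0.05 in limma's moderated test on log2(FPKM + 1), and Benjamini-Hochberg adjustment covered all 13160 genes. In sham females against sham males, the receptor gene Pth1r was the 1 of 10 genes called, and it was higher in females. Among all genes tested, 9.15% were called there, 4.28% as higher and 4.87% as lower, so 1 of 10 is near the background. An unadjusted p under 0.05 was found for 2 of the 10 and for 26.6% of all genes. The libraries of the groups did not overlap for 2 of the 10, Pth1r and Slc9a3r1, both higher in females, against 30.3% of all genes, 9.66% higher and 20.6% lower. In ovariectomized females against sham males, Pth1r and the scaffold gene Slc9a3r1 were called higher, 2 of 10, against 11.8% of all genes, 5.63% as higher and 6.19% as lower. There 3 of the 10 did not overlap, 2 higher and 1 lower, against 34.1% of all genes, 10.9% higher and 23.2% lower, and 28.6% of all genes had an unadjusted p under 0.05. Between ovariectomized and sham females, 0 of 10 were called, and 0 of 10 had an unadjusted p under 0.05, against 0.0076% called and 6.29% with such a p among all genes. The 1 gene of the 10 without overlap was lower, against 12.9% of all genes, 6.76% higher and 6.09% lower. That background is a single gene, Pllp, the gene of plasmolipin, named here because it was the only call (log2 fold change -1.23, adjusted p = 0.0417 in limma). The median log2 fold change of the 10 genes was 0.12, -0.05 and 0.09 in the 3 comparisons in that order, beside -0.09, 0.01 and -0.09 for all genes tested. The last comparison shares its libraries with the other two, so the 3 are not independent of each other.

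**Figure D1:**
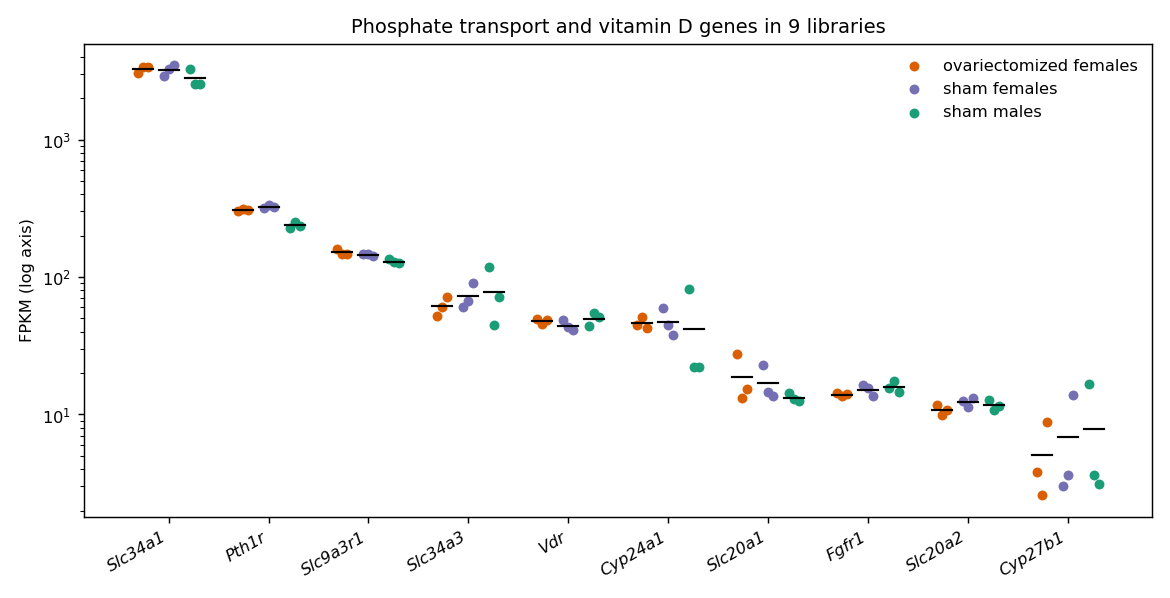
FPKM (log axis) of the 10 genes in each library, ordered by mean level, with ovariectomized females left, sham females in the middle and sham males right within each gene. Points are libraries and bars are group means over 3 libraries. Slc34a1 lies far above the rest, and Pth1r is the gene whose female libraries all lie well above the male ones.

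The levels spanned a wide range, as the plot of FPKM by gene shows. FPKM are per length of transcript, so levels of different genes can be set side by side. Over the 9 libraries Slc34a1 averaged 3077 ± 345 FPKM (SD, n = 9), rank 23 among all genes tested. Pth1r followed at 289 ± 40.3 FPKM and Slc9a3r1 at 142 ± 10.6 FPKM. These 3 did not overlap with each other or with the next gene in any library. Slc34a3 came next at 70.6 ± 21.9 FPKM, then Vdr at 47.4 ± 4.39 and Cyp24a1 at 45.1 ± 18.2. The ranges of these 3 overlapped, and Vdr exceeded Cyp24a1 in 5 of 9 libraries. Cyp24a1 exceeded Slc20a1 in all 9 libraries, though their ranges overlapped. Slc20a1 averaged 16.3 ± 5.22 FPKM, Fgfr1 15.0 ± 1.33 and Slc20a2 11.6 ± 1.04. Slc20a1 and Fgfr1 could not be ordered, since Slc20a1 was above in 4 of 9 libraries. Cyp27b1 was lowest at 6.58 ± 5.32 FPKM, and Slc20a2 exceeded it in 7 of 9 libraries.

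Slc34a1 (ENSMUSG00000021490, chromosome 13, 55398187 to 55415592) encodes NaPi-IIa, the main sodium-phosphate cotransporter of the brush border in mice. Its level was 3039.31, 3358.68 and 3351.75 FPKM in ovariectomized females, 2882.75, 3254.94 and 3455.34 in sham females, and 3250.15, 2548.73 and 2551.69 in sham males. Male library 1 lay inside the female range, and the other two male libraries lay below every female library. The fold change was 1.15 in sham females against sham males (log2 0.21, SE 0.11, 95% interval -0.04 to 0.45), which did not pass the test (limma adjusted p = 0.257). In ovariectomized females against sham males it was 1.17 (log2 0.23, limma adjusted p = 0.196). Without M1 both comparisons were called, at log2 0.32 (limma adjusted p = 0.0430, range over 19 alternatives 0.0430 to 0.841) and 0.35 (0.0334, range 0.0334 to 0.969). A score of other cell types was the mean over their 39 tested markers of log2(FPKM + 1), each relative to its mean over the 9 libraries. With that score as a covariate the log2 fold changes were -0.09 and -0.01. The score was higher in every male library than in every female library, so the covariate overlaps with sex. A call lost with it, here and below, can reflect a larger error as well as a smaller difference, and does not separate the score from sex. Between ovariectomized and sham females the log2 fold change of Slc34a1 was 0.03, with a 95% interval of -0.22 to 0.27.

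Slc34a3 (ENSMUSG00000006469, chromosome 2, 25228898 to 25234364) encodes NaPi-IIc, a second brush border phosphate cotransporter. It was at 51.81, 60.69 and 71.75 FPKM in ovariectomized females, 60.85, 66.65 and 90.23 in sham females, and 117.73, 44.69 and 71.37 in sham males. The male libraries spanned both female groups, with the highest and the lowest value of all 9. No comparison was called (limma adjusted p = 0.984 for sham females against males, 0.993 for ovariectomized against sham females and 0.629 for ovariectomized females against males). The 95% intervals of these log2 fold changes reached from -0.70 to 0.67, -0.91 to 0.45 and -0.93 to 0.44. As a percentage of the Slc34a1 FPKM in the same library, which no scaling between libraries can alter, Slc34a3 stood at 1.70%, 1.81% and 2.14% in ovariectomized females, 2.11%, 2.05% and 2.61% in sham females, and 3.62%, 1.75% and 2.80% in sham males. The groups overlapped, and the log2 ratio differed by -0.22 between sham females and males, by -0.26 between ovariectomized and sham females and by -0.48 between ovariectomized females and males. In exact two-sided permutation tests these gave p = 0.6, 0.3 and 0.3 (0.72, 0.6 and 0.6 adjusted over 6 ratio tests), where 3 libraries against 3 allow no p below 0.1. These tests took the libraries as unpaired. Within each library number the percentage was lower in the ovariectomized than in the sham female library, which was not tested.

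Slc20a1 and Slc20a2 encode PiT-1 and PiT-2, sodium-phosphate cotransporters found in most cell types. Slc20a1 (ENSMUSG00000027397, chromosome 2, 129198764 to 129211616) was at 27.49, 13.15 and 15.24 FPKM in ovariectomized females, 22.83, 14.56 and 13.69 in sham females, and 14.34, 12.86 and 12.60 in sham males. Library 1 was the highest of each group, by far in both female groups. Slc20a2 (ENSMUSG00000037656, chromosome 8, 22476788 to 22569612) was at 11.81, 9.99 and 10.77 FPKM in ovariectomized females, 12.62, 11.37 and 13.08 in sham females, and 12.77, 10.79 and 11.51 in sham males. All 3 groups overlapped for both genes. Their log2 fold changes were 0.30 and 0.07 in sham females against males, 0.09 and -0.17 in ovariectomized against sham females, and 0.39 and -0.10 in ovariectomized females against males. None passed the limma test (lowest adjusted p = 0.347, for Slc20a1 in the last comparison).

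**Figure D2:**
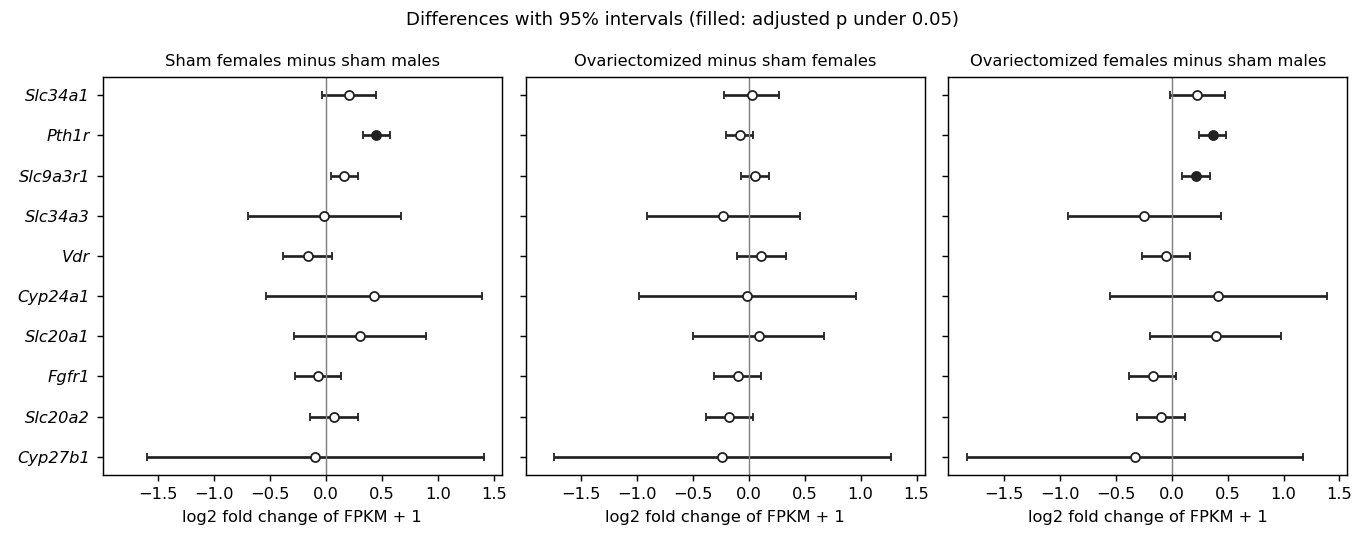
Log2 fold changes of FPKM + 1 with 95% intervals from the limma fit for the 10 genes in the 3 comparisons, where a filled point passed an adjusted p of 0.05. Pth1r is filled in both comparisons of females with males, Slc9a3r1 in that of ovariectomized females with males, and no gene in that of ovariectomized with sham females.

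Pth1r (ENSMUSG00000032492, chromosome 9, 110722085 to 110747145) encodes the receptor through which parathyroid hormone reaches the proximal tubule. It was at 301.34, 310.65 and 305.07 FPKM in ovariectomized females, 316.88, 331.61 and 321.99 in sham females, and 226.46, 249.86 and 234.34 in sham males. Every female library lay above every male library, and within a group the libraries differed little. The means were 306 ± 4.69, 323 ± 7.48 and 237 ± 11.9 FPKM (SD, n = 3 each) in ovariectomized females, sham females and sham males. Pth1r was 1.36-fold higher in sham females than in sham males (log2 0.45, SE 0.05, 95% interval 0.33 to 0.57, limma adjusted p = 0.000995), rank 188 by p among the genes tested. In ovariectomized females it was 1.29-fold higher than in males (log2 0.37, SE 0.05, limma adjusted p = 0.00248). The call in sham females held in all 19 alternatives, with adjusted p from 0.000346 to 0.0313 and log2 fold changes of 0.38 to 0.54. That in ovariectomized females held in 18 of 19 and was lost after quantile normalization (log2 0.22, limma adjusted p = 0.0596, range over alternatives 0.000704 to 0.0596). With the marker score of other cell types as a covariate the differences were as large, at log2 0.46 (limma adjusted p = 0.0313) and 0.38 (0.0319).

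Pth1r was lower in all 3 ovariectomized than in all 3 sham female libraries, by a log2 fold change of -0.08 with a 95% interval of -0.20 to 0.04. This did not pass the test (limma adjusted p = 0.938), and 6.09% of all genes had every ovariectomized library below every sham library. By Pearson's r of log2(FPKM + 1) over the 9 libraries, the genes most like Pth1r were Papss2 (r = 0.993), which makes the sulfate donor PAPS, Fah (0.982), the last enzyme of tyrosine breakdown, and Tmem37 (0.981). The 9 points share 3 groups and their libraries, and the values are a description. Papss2 averaged 181, 219 and 61.2 FPKM in ovariectomized females, sham females and sham males, a wider gap between the sexes than that of Pth1r.

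The 250 bases before each of the 3 Pth1r starts in RefSeq (build GRCm38.p6, minus strand) are given because Pth1r was called in both comparisons with males. The table's values are sums over the gene, so they do not tell which start was used. Capitals mark matches, on either strand, to 5 short motifs: GTTAAT, a core of sites of HNF1 factors of the proximal tubule; AGGTCA, a core shared by many nuclear receptors; AGAACA, a core of androgen and glucocorticoid receptor sites; GGGCGG, the GC box; and TATAAA, the TATA box.
Pth1r start 1, chr9:110747146-110747395: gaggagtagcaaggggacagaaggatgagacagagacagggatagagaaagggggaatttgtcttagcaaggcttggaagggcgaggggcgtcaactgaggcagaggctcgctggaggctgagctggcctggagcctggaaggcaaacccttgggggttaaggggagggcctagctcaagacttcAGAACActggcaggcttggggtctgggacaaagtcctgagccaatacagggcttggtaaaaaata
Pth1r start 2, chr9:110743687-110743936: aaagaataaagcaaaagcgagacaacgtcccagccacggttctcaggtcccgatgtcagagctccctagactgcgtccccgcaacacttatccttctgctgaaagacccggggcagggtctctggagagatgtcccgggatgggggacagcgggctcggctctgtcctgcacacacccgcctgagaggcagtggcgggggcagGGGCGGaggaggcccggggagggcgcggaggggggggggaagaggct
Pth1r start 3, chr9:110742611-110742860: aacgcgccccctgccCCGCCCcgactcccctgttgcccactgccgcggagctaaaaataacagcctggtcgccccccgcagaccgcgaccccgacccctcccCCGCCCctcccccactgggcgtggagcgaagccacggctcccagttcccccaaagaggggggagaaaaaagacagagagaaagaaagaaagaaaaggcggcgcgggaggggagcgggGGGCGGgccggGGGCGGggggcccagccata
The window before the first start held 1 AGAACA, at 65 to 60 bases before it, and none of the other motifs. The second held 1 GC box and the third 4 GC boxes, with no overlap between matches. Among 32851 such windows of all genes, 16.1% held AGAACA and 32.7% the GC box. A match describes the letters and does not show that a factor binds there.

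Slc9a3r1 (ENSMUSG00000020733, chromosome 11, 115163341 to 115181181) encodes NHERF1, the scaffold that ties NaPi-IIa to the brush border and also binds the parathyroid hormone receptor. It was at 158.65, 147.58 and 146.78 FPKM in ovariectomized females, 146.58, 146.80 and 142.17 in sham females, and 134.31, 128.11 and 125.72 in sham males. All 6 female libraries lay above all 3 male libraries, by little. It was 1.17-fold higher in ovariectomized females than in males (log2 0.22, SE 0.05, limma adjusted p = 0.0323, range over 19 alternatives 0.00691 to 0.239). This call held in 8 of 19 alternatives. It was lost without M2, M3, S1, S2, O1, O2 or O3 (limma adjusted p = 0.0501 to 0.10 in these 7 fits). It was also lost with the marker score as a covariate (log2 0.26, limma adjusted p = 0.123) and after quantile normalization (0.11, 0.239). In sham females against males the fold change was 1.12 (log2 0.17, limma adjusted p = 0.0949) and was not called as deposited, though it was after median-ratio scaling (0.26, adjusted p = 0.0230, range over alternatives 0.0230 to 0.365). Ovariectomized and sham females differed by a log2 fold change of 0.06, with a 95% interval of -0.07 to 0.18. The genes most like it over the 9 libraries were Iah1 (r = 0.990), the iron-regulated aconitase gene Aco1 (0.975) and the organic cation and ergothioneine transporter gene Slc22a4 (0.968).

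The windows of Slc9a3r1 and, for comparison, of the most abundant gene of the set, Slc34a1, are shown with the same motifs in capitals (RefSeq, GRCm38.p6, both on the plus strand).
Slc9a3r1, chr11:115163091-115163340: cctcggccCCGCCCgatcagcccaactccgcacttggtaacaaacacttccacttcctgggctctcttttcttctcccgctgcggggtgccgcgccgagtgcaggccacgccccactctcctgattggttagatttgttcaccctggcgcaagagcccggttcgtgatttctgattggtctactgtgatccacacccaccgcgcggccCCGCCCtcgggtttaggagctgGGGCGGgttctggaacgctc
Slc34a1, chr13:55399398-55399647: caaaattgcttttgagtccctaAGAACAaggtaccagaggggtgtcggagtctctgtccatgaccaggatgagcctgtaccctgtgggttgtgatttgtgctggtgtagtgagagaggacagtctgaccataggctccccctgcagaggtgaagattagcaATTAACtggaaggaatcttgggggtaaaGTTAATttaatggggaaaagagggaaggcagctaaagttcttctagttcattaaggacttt
The Slc9a3r1 window held 3 GC boxes. The Slc34a1 window held GTTAAT on the same strand at 61 to 56 bases and on the other strand at 89 to 84 bases before the start, and AGAACA at 228 to 223 bases. GTTAAT was found in 6.43% of all windows. RefSeq windows were found for 7 of the 10 genes, and that of Cyp27b1 held none of the 5 motifs.

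Fgfr1 (ENSMUSG00000031565, chromosome 8, 25513654 to 25575718) encodes an FGF receptor that binds FGF23 together with Klotho. It was at 14.24, 13.64 and 14.02 FPKM in ovariectomized females, 16.25, 15.49 and 13.52 in sham females, and 15.54, 17.51 and 14.57 in sham males. The ovariectomized libraries lay below all male libraries, as they did for 23.2% of all genes, and the sham females overlapped with both. The log2 fold changes were -0.07 in sham females against males, -0.10 in ovariectomized against sham females and -0.17 in ovariectomized females against males. None was called (limma adjusted p = 0.669, 0.966 and 0.256), and the first was positive after median-ratio scaling or quantile normalization (0.02 each).

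Vdr (ENSMUSG00000022479, chromosome 15, 97854425 to 97910630) encodes the nuclear receptor of the active vitamin D hormone. It was at 49.42, 45.60 and 48.79 FPKM in ovariectomized females, 48.64, 43.45 and 40.87 in sham females, and 43.67, 55.12 and 50.86 in sham males. The groups overlapped throughout. The log2 fold changes were -0.16 in sham females against males (95% interval -0.38 to 0.05), 0.11 in ovariectomized against sham females (-0.10 to 0.33) and -0.05 in ovariectomized females against males (-0.27 to 0.17), with limma adjusted p of 0.304, 0.961 and 0.760.

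**Figure D3:**
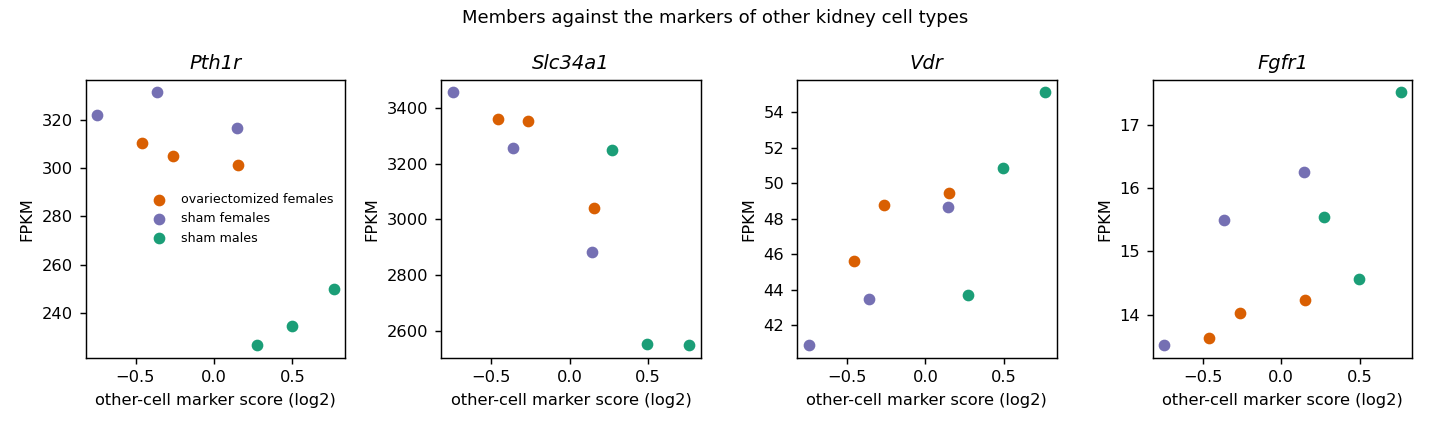
FPKM of Pth1r, Slc34a1, Vdr and Fgfr1 in each library against its score of other-cell markers, the mean over 39 marker genes of log2(FPKM + 1) minus the gene's mean over the 9 libraries. The Pth1r values of all female libraries lie above those of all male libraries, while the other 3 genes overlap between sham females and males.

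The score of other-cell markers was 0.15, -0.46 and -0.26 in ovariectomized females, 0.15, -0.36 and -0.74 in sham females, and 0.27, 0.76 and 0.49 in sham males. Over the 9 libraries, Pearson's r of log2(FPKM + 1) with the score was -0.88 for Slc34a1, -0.76 for Pth1r, 0.80 for Vdr and 0.72 for Fgfr1. For the other members r lay between -0.58 (Slc9a3r1) and 0.07 (Slc20a1). The score differs between the groups, so these values are a description. Library 1 of both female groups came close to male library 1 on this scale, as the plot against the score shows. At these scores Pth1r stood at 301.34 and 316.88 FPKM in the ovariectomized and the sham female library, against 226.46 in the male one. Slc34a1 stood at 3039.31 and 2882.75 FPKM in the same female libraries, against 3250.15 in the male one. Male libraries 2 and 3, at 2548.73 and 2551.69 FPKM, lay below both of these. This sets 1 library per group side by side, with the male score still the higher, and was not tested. With the score as a covariate the sign of the log2 fold change of Vdr turned in both comparisons with males (0.09 and 0.17), and it stayed uncalled.

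Cyp24a1 and Cyp27b1 encode the enzymes that break down and make the active vitamin D hormone. Pooled over the 3 groups, their SD within groups was the largest of the 10 genes. For Cyp24a1 the spread was widest in males, where the highest library was 3.69 times the lowest, against 1.57 in sham and 1.18 in ovariectomized females. Slc20a1 varied more than Cyp24a1 in both female groups, by 1.67 times in sham and 2.09 times in ovariectomized females. Cyp24a1 (ENSMUSG00000038567, chromosome 2, 170482708 to 170497145) was at 44.89, 50.81 and 42.90 FPKM in ovariectomized females, 59.17, 45.12 and 37.57 in sham females, and 81.14, 22.01 and 22.10 in sham males. Male libraries 2 and 3 lay below every female library, and male library 1 lay above every one. The log2 fold change was 0.43 in sham females against males and 0.42 in ovariectomized females against males, with 95% intervals of -0.54 to 1.40 and -0.55 to 1.39, and neither was called (limma adjusted p = 0.552 and 0.547). Without M1 both were called, at log2 1.04 (limma adjusted p = 0.00793, range over alternatives 0.00793 to 0.945) and 1.03 (0.00699, range 0.00699 to 0.910). The size of the difference and its call thus rested on 1 male library. For ovariectomized against sham females the log2 fold change was -0.01, with a 95% interval of -0.98 to 0.95.

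Cyp27b1 (ENSMUSG00000006724, chromosome 10, 127048250 to 127053006) was at 3.83, 2.58 and 8.82 FPKM in ovariectomized females, 3.01, 3.65 and 13.85 in sham females, and 16.71, 3.62 and 3.11 in sham males. In each group 1 library stood well above the other two, by 3.42, 4.6 and 5.37 times from the lowest to the highest in ovariectomized females, sham females and sham males. The SD of log2(FPKM + 1) within groups was 1.0, larger than that of 99.5% of all genes tested and of 99.6% of genes at a like level (within 0.5 of its mean on that scale). For Cyp24a1 it was 0.64, larger than in 98.1% of genes, and for Slc34a3 0.45, larger than in 95%. For Slc20a1 it was 0.38, larger than in 92.2%. That of Pth1r was 0.05, larger than in 2.00% of all genes and 11.6% of genes at a like level. That of Slc9a3r1 was 0.05, larger than in 2.14% and 7.67%. The log2 fold changes of Cyp27b1 were -0.09 in sham females against males, -0.24 in ovariectomized against sham females and -0.33 in ovariectomized females against males. Their 95% intervals were wide, from -1.60 to 1.41, from -1.74 to 1.27 and from -1.83 to 1.17, and none was called (limma adjusted p = 0.944, 0.997 and 0.776).

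**Figure D4:**
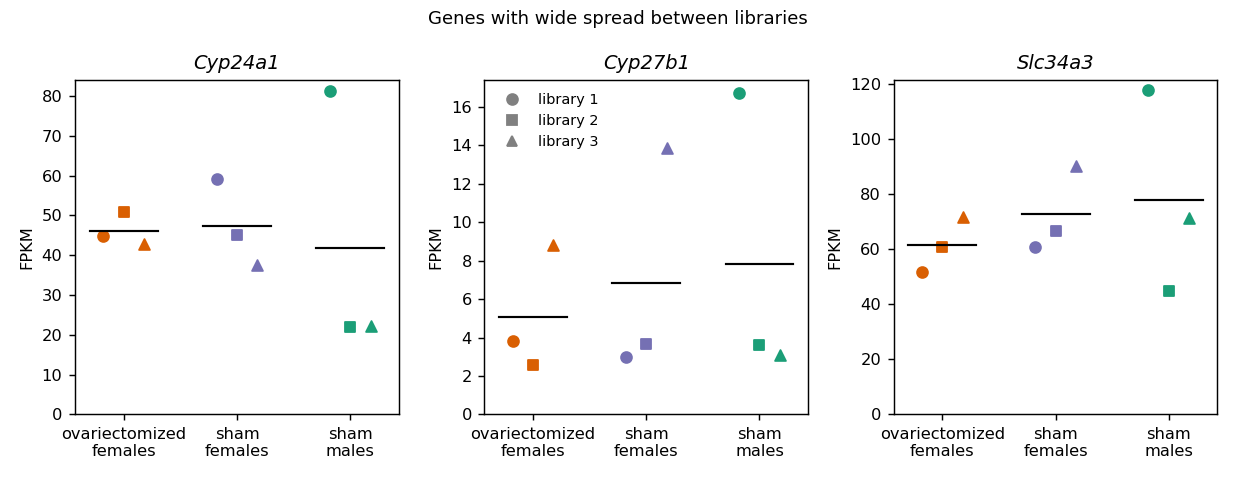
FPKM of Cyp24a1, Cyp27b1 and Slc34a3 in each library, with ovariectomized females left, sham females in the middle and sham males right, marker shapes for library number and bars for group means. Male library 1 is the highest of all 9 for the 3 genes, and library 3 is the highest female library of each group for Cyp27b1 and Slc34a3.

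As the plot of these genes by library shows, male library 1 held the highest level of Cyp24a1, Cyp27b1 and Slc34a3 among all 9 libraries. In each group the library with the most Cyp27b1 also held the most Slc34a3: library 3 in both female groups and library 1 in males. This was noticed after the values were seen and was not tested. Cyp24a1 did not follow the same order in females, where library 2 of the ovariectomized and library 1 of the sham group were highest. As a percentage of the Cyp24a1 FPKM in the same library, Cyp27b1 stood at 8.53%, 5.08% and 20.6% in ovariectomized females, 5.09%, 8.09% and 36.9% in sham females, and 20.6%, 16.4% and 14.1% in sham males. The groups overlapped, and exact two-sided permutation tests of the log2 ratio gave p = 0.6 for sham females against males, 0.8 for ovariectomized against sham females and 0.3 for ovariectomized females against males (0.72, 0.8 and 0.6 adjusted over 6 tests).

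Other genes of the pathway were taken from 5 lists with 83 genes, of which 82 were in the table and 71 were tested. In sham females against sham males 5 were called higher and 6 lower, 11 of 71, where 9.15% of all genes were called, and their median log2 fold change was -0.06 beside -0.09 for all genes. In ovariectomized females against males 4 were called higher and 4 lower, with a median of -0.06, where 11.8% of all genes were called. Between the female groups 0 of 71 were called and 5 had an unadjusted p under 0.05, as did 6.29% of all genes. With the marker score as a covariate 0 of 71 were called in sham females and 3 of 71 in ovariectomized females against males. These 3 were Galnt3, Slc17a3 and Amn, of which Amn was called in no other alternative (log2 -0.37, limma adjusted p = 0.0413, range 0.0413 to 0.999). The counts per list given next are to be read against these shares of all genes: 4.28% called higher and 4.87% lower in sham females against males, and 5.63% higher and 6.19% lower in ovariectomized females against males. Likewise, all sham female libraries lay above all male ones for 9.66% of all genes and below for 20.6%. For ovariectomized females against males these shares were 10.9% and 23.2%.

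**Figure D5:**
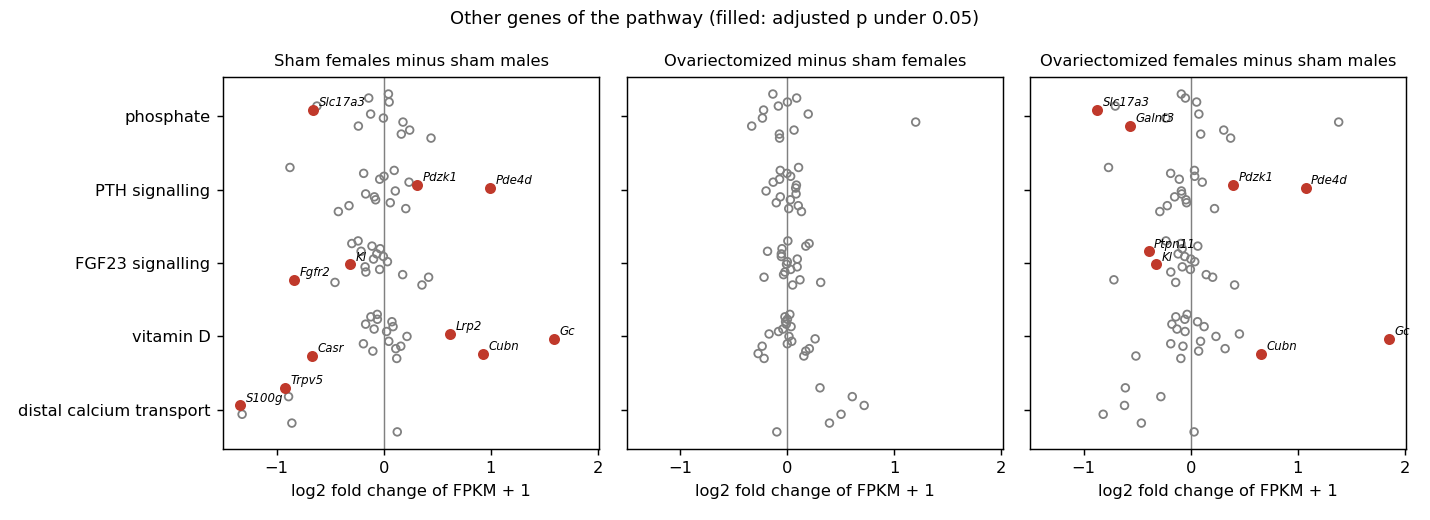
Log2 fold changes of FPKM + 1 of the other pathway genes by list in the 3 comparisons, where filled and named points passed an adjusted p of 0.05. Gc, Pde4d and Pdzk1 lie above 0 and Slc17a3 below 0 in both comparisons of females with males, and no gene is filled between the female groups.

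Of 16 tested genes of parathyroid hormone signalling, 2 rose in each female group relative to males and 0 fell, near the shares of 9.15% and 11.8% of all genes called, with medians of -0.02 in sham and -0.06 in ovariectomized females. Pde4d, a phosphodiesterase that breaks down cyclic AMP, was at 9.61, 15.09 and 8.41 FPKM in ovariectomized females, 11.96, 10.20 and 8.38 in sham females, and 5.30, 4.08 and 4.37 in sham males, with no overlap between the sexes. Its log2 fold changes against males were 1.07 in ovariectomized females (limma adjusted p = 0.00924) and 1.0 in sham females (0.0169). Pdzk1, a second scaffold of brush border transporters, averaged 688 ± 62.3, 646 ± 11.5 and 521 ± 29.1 FPKM in the same order. It was higher than in males by log2 0.40 in ovariectomized (limma adjusted p = 0.00945) and 0.31 in sham females (0.0332). In sham females the Pde4d call was lost without M2, M3 or S2 (limma adjusted p = 0.0618 to 0.0652, range over alternatives 0.00493 to 0.236). That of Pdzk1 was lost without M2, M3, S1, S2, S3 or O1 (0.0503 to 0.115, range 0.0166 to 0.463). With the marker score as a covariate neither gene was called in either female group. In ovariectomized females Pde4d was then at log2 1.06 (limma adjusted p = 0.0959, range over alternatives 0.00565 to 0.0959) and Pdzk1 at 0.34 (0.131, range 0.00484 to 0.131), and in sham females at 0.98 and 0.24 (0.236 and 0.463).

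Of 18 tested genes of FGF23 signalling, 0 rose and 2 fell in each female group relative to males, near the same shares of all genes (9.15% in sham and 11.8% in ovariectomized females), with medians of -0.10 in sham and -0.08 in ovariectomized females. Kl, the gene of the co-receptor Klotho, was at 173.23, 156.63 and 174.76 FPKM in ovariectomized females, 187.05, 156.07 and 164.51 in sham females, and 199.81, 219.48 and 211.30 in sham males. All male libraries lay above all female libraries. The log2 fold change was -0.32 in ovariectomized (limma adjusted p = 0.0323) and -0.31 in sham females (0.0407) against males, and 7 of 19 alternatives kept the call in sham females. It was lost there without M2, M3, S2, S3, O1 or O3 (limma adjusted p = 0.0605 to 0.14, range over alternatives 0.0113 to 0.687). The marker score as a covariate also ended it (log2 -0.13, limma adjusted p = 0.687). In ovariectomized females it was lost without M2, M3, O1, O2 or O3 (0.0635 to 0.113, range 0.00535 to 0.425). The covariate ended that call too (log2 -0.16, limma adjusted p = 0.425), as did median-ratio scaling (0.0566), a fit without a variance trend (0.0598) and one without a filter (0.0707). Fgfr4, another FGF receptor of the tubule, averaged 12.5 ± 0.643, 12.8 ± 0.789 and 11.2 ± 1.34 FPKM in ovariectomized females, sham females and sham males and was not called (limma adjusted p = 0.262 in sham females against males). Fgfr2 was called lower in sham females (log2 -0.84, limma adjusted p = 0.0430, range over alternatives 0.0250 to 0.800), a call lost without M2, M3, S2, S3 or O3 (0.0678 to 0.14). With the covariate the log2 fold change of Fgfr2 was -0.16 (limma adjusted p = 0.800). Ptpn11, the phosphatase SHP2 of receptor signalling, was lower in ovariectomized females than in males (log2 -0.39, limma adjusted p = 0.00615). This call was lost only with the covariate (-0.42, 0.0527, range over alternatives 0.00612 to 0.0527), and Fgf23 itself was listed at 0 in all 9 libraries.

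Of 19 tested genes of vitamin D handling, 3 rose and 1 fell in sham females relative to males, while 2 rose and 0 fell in ovariectomized females relative to males, beside 9.15% and 11.8% of all genes called. Gc, the gene of the vitamin D-binding protein, was at 111.35, 127.61 and 146.22 FPKM in ovariectomized females, 94.16, 109.01 and 117.03 in sham females, and 55.48, 19.28 and 38.27 in sham males. All female libraries lay above all male libraries, with log2 fold changes of 1.85 in ovariectomized (limma adjusted p = 0.00485) and 1.59 in sham females (0.0129). The call in sham females was lost without S2 (limma adjusted p = 0.0529, range over alternatives 0.00305 to 0.394). Given the marker score as a covariate, neither was called (log2 0.91 and limma adjusted p = 0.394 in sham females, 1.28 and 0.0937 in ovariectomized females, where the alternatives ranged from 0.00122 to 0.0937). The endocytic receptor genes Lrp2 and Cubn, whose megalin and cubilin proteins take up filtered vitamin D with its binding protein, are also in the list of proximal tubule markers. Cubn averaged 72.4 ± 5.72, 87.7 ± 8.31 and 46.5 ± 12.7 FPKM in ovariectomized females, sham females and sham males, with log2 fold changes against males of 0.66 in ovariectomized (limma adjusted p = 0.0353) and 0.93 in sham females (0.00962). In ovariectomized females the Cubn call was lost without M2, M3, S2, O1, O2 or O3 (limma adjusted p = 0.0538 to 0.114, range over alternatives 0.00356 to 0.471). The marker score as a covariate ended both Cubn calls, at log2 0.29 in ovariectomized (limma adjusted p = 0.471) and 0.49 in sham females (0.320, range 0.00123 to 0.320). Lrp2 averaged 201.5 ± 30.8, 227 ± 33.1 and 147 ± 23.2 FPKM and was called in sham females against males (log2 0.62, limma adjusted p = 0.0366, range 0.0259 to 0.743), but not without M2, M3, S2, S3 or O3 (0.0611 to 0.117). With the covariate the log2 fold change of Lrp2 was 0.11 (limma adjusted p = 0.743).

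The calcium-sensing receptor gene Casr was lower in sham females than in males (log2 -0.67, limma adjusted p = 0.0249, range over alternatives 0.0151 to 0.588). It lost its call without M2, M3, S2 or S3 (0.0818 to 0.0935), and with the marker covariate the log2 fold change was -0.25 (limma adjusted p = 0.588). The genes of the vitamin D 25-hydroxylases Cyp27a1 and Cyp2r1 and of the receptor partner Rxra were not called in any comparison. Cyp27a1 averaged 32.6 ± 1.67, 28.9 ± 3.79 and 31.4 ± 7.44 FPKM in ovariectomized females, sham females and sham males, and Cyp2r1 1.17 ± 0.148, 0.880 ± 0.187 and 0.733 ± 0.0971 FPKM. Rxra averaged 27.1 ± 0.533, 27.1 ± 2.84 and 28.3 ± 3.95 FPKM in the same order. Of these genes Cyp2r1 lay near the filter's minimum of 1 FPKM, where log2(FPKM + 1) understates fold changes. All male libraries, at 0.84, 0.65 and 0.71 FPKM, were below that minimum for Cyp2r1.

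Of 12 other phosphate-related genes tested, 0 rose and 1 fell in sham females relative to males, while 0 rose and 2 fell in ovariectomized females relative to males, near the 9.15% and 11.8% of all genes called. Slc17a3, first described as a sodium-phosphate transporter and known for organic anion and urate transport, was at 71.02, 93.25 and 68.87 FPKM in ovariectomized females, 81.60, 100.39 and 88.54 in sham females, and 133.56, 152.28 and 141.07 in sham males. All male libraries lay above all female ones, and the log2 fold changes were -0.88 in ovariectomized (limma adjusted p = 0.00185) and -0.66 in sham females (0.0113). The first held in all 19 alternatives and the second in 18, the exception being the marker covariate, where the log2 fold change was -0.79 (limma adjusted p = 0.0818, range over alternatives 0.00259 to 0.0818). Galnt3, whose enzyme glycosylates FGF23 in the cells that secrete it, averaged 31.8 ± 1.30, 40.4 ± 3.87 and 47.6 ± 3.29 FPKM in ovariectomized females, sham females and sham males. It was lower in ovariectomized females than in males (log2 -0.57, limma adjusted p = 0.00276) in all 19 alternatives. Against sham females every ovariectomized library was lower, as for 6.09% of all genes, without passing the test (log2 -0.33, limma adjusted p = 0.376).

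Genes of distal calcium transport, which the vitamin D hormone raises in the distal convoluted and connecting tubule, were included as genes of other segments. Of 6 tested, 0 rose and 2 fell in sham females relative to males, with a median of -0.90, and 0 of 6 were called in ovariectomized females, with a median of -0.54. Of all genes 9.15% were called in the sham comparison, 4.87% as lower, and 11.8% in the ovariectomized one. S100g, the calbindin-D9k gene, averaged 489 ± 145, 298 ± 105 and 735 ± 139.7 FPKM in ovariectomized females, sham females and sham males (log2 -1.34 in sham females against males, limma adjusted p = 0.0206, range over alternatives 0.00912 to 0.528). The calcium channel gene Trpv5 averaged 5.37 ± 0.947, 4.27 ± 1.61 and 8.83 ± 2.38 FPKM (log2 -0.92 in sham females against males, limma adjusted p = 0.0484, range 0.0221 to 0.730). The S100g call was lost without M2, M3, S2 or S3 (0.0607 to 0.0782). That of Trpv5 held in 3 of 19 alternatives and was lost without M2, M3, S2, S3, O1, O2 or O3 (0.0565 to 0.154). With the marker score as a covariate neither was called, at log2 -0.56 for S100g (limma adjusted p = 0.528) and -0.35 for Trpv5 (0.730).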

How the data were processed

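RNA of prominin-1-positive kidney cortex cells was sequenced in 9 libraries, made with a strand-specific kit per the labels' protocols. The authors deposited FPKM per gene and library, which STAR 2.6.0c and RSEM made per the submitters' processing notes. The version of RSEM, the genome build and the gene models were not given in the sources used here. Positions are from GENCODE M21 (GRCm38), which held 52093 of the 52405 gene IDs. Of the side columns, 3 held numbers and were not used.

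The FPKM carry no counts. Steps between low values of genes with 1 transcript, matched to whole steps within the rounding of the deposited values, put the depth at 21.25 to 28.75 M reads per library, with 64.8% to 71.6% of values on such steps against 10.8% to 14.5% by chance. No counting interval was computed from this estimate. FPKM sums were 693451 to 734990, and 12287 to 13115 genes per library reached 1 FPKM.

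Genes that reached 1 FPKM in 3 or more libraries were fitted on log2(FPKM + 1) with limma 3.58.1 (R 4.3.3), with a mean per group and trended variance. Fold changes are on that scale, which understates those of low genes. The fit was tested on simulated data. Ratios were tested by exact permutation (scipy 1.17.1). Named are the 10 members, up to 4 called genes per pathway list and comparison, a fixed few pathway genes in every comparison, and the 3 tested genes most like each called member. The members, lists and tests were chosen with earlier results of these data known. Alternatives changed the pseudocount, filter, scaling, variance model, libraries, covariates and pairing. Replicate numbers were checked for pairing by correlating the deviations from group means. Libraries of the same number had r = 0.347, 0.174 and 0.291 between ovariectomized and sham females, and -0.125 to 0.280 between sham females and males. Libraries of different number had r = -0.325 to 0.054 between ovariectomized and sham females, and -0.356 to 0.282 between sham females and males. Between the female groups each same-number value thus exceeded every different-number value, and whether they share a batch or a pairing was not tested. The labels state no pairing. The main fit and the ratio tests therefore took the libraries as unpaired, with the replicate block as an alternative.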

Additional observations from a re-analysis of the deposited data

How the results depend on the processing

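Over 580 values of the 10 genes under alternatives, 531 kept direction and side of the threshold, 12 lost a call, 5 gained one and 32 changed sign, none of these 32 for a gene called in that comparison. The sign changes without leaving out a library were, in sham females against males, -0.086 for Slc34a1, 0.13 for Fgfr1 and 0.095 for Vdr with the marker covariate, 0.078 for Slc34a3 and 0.018 for Fgfr1 after median-ratio scaling, and 0.022 for Fgfr1 and 0.028 for Cyp27b1 after quantile normalization. In ovariectomized against sham females they were -0.025 for Slc20a1 and 0.023 for Cyp24a1 with the covariate. In ovariectomized females against males they were -0.014 for Slc34a1 and 0.17 for Vdr with the covariate, 0.041 for Vdr after median-ratio scaling and 0.011 for Slc20a2 after quantile normalization. Leaving out 1 library, log2 fold changes that changed sign ranged, in sham females against males, over -0.35 to 0.34 for Slc34a3, -0.13 to 0.0031 for Fgfr1 and -0.69 to 0.58 for Cyp27b1. In ovariectomized against sham females they ranged over -0.047 to 0.084 for Slc34a1, -0.21 to 0.31 for Slc20a1, -0.16 to 0.16 for Cyp24a1 and -0.65 to 0.36 for Cyp27b1, and in ovariectomized females against males over -0.58 to 0.11 for Slc34a3, -0.14 to 0.023 for Vdr and -0.74 to 0.35 for Cyp27b1.

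In sham females against males, 1204 genes were called, against 739 without a filter, 722 with only the 2 groups, 329 with the marker covariate and 570 to 1635 with 1 library left out. Of the 10 genes 1 was called, against 2 after median-ratio scaling and 1 to 3 with 1 library left out. Of the pathway genes 11 were called, against 3 without a filter, 7 without a variance trend, 7 with only the 2 groups, 6 with a replicate block, 0 with the covariate and 2 to 16 with 1 library left out. In ovariectomized against sham females 1 gene was called, against 2 without a filter, 0 after either scaling, 3 without a trend, 9 with only the 2 groups, 0 with a replicate block, 6 with a replicate block and only the 2 groups (chosen after seeing the data), 4 with the covariate and 0 to 11 with 1 library left out. None of the 10 genes was called there in any of 20 alternatives. In ovariectomized females against males 1555 genes were called, against 641 with the covariate and 877 to 1698 with 1 library left out. Of the 10 genes 2 were called, against 0 after quantile normalization, 1 each without a trend, with only the 2 groups and with the covariate, and 1 to 4 with 1 library left out. Of the pathway genes 8 were called, against 3 with the covariate and 6 to 11 with 1 library left out. The replicate block changed no call of the 10 genes. In sham females against males the calls split into 563 higher and 641 lower, against 845 and 471 after median-ratio scaling and 695 and 471 after quantile normalization. In ovariectomized females against males they split into 741 and 814, against 1024 and 490 and 767 and 536 under the same scalings. The causes of these changes were not tested. Fits with fewer libraries have fewer degrees of freedom, and with 1 library left out the counts of all genes called lay on both sides of the main counts. Of the 6 differences in ratios, 3 changed sign with 1 library left out: Slc34a3 to Slc34a1 in sham females against males (-0.50 to 0.019), and Cyp27b1 to Cyp24a1 in sham females against males (-1.39 to 0.037) and in ovariectomized against sham females (-0.84 to 0.58, and 0.077 with group medians).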
